A study of Homo sapiens with 4 samples.

Results

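Notch signalling was described through 10 of its genes in PC3 cells, a human prostate cancer line derived from a bone metastasis. The genes were the receptors NOTCH1, NOTCH2 and NOTCH3, the ligands JAG1, JAG2 and DLL3, the coactivator MAML1, and the effectors HES1, HEY1 and HEY2. They were picked as named parts of the pathway, and every probe set that the platform table assigns to exactly 1 of them was used. This gave 28 probe sets, and 10 of the 19775 genes tested. The cells were grown in RPMI with fetal bovine serum, transfected with 40 nM of a control siRNA or of an siRNA against COUP-TFII, and sampled at 48 h on Affymetrix expression arrays. Each of the 2 groups held 2 arrays, and the comparison asked which transcripts differ when COUP-TFII is targeted. The labels give 1 siRNA name per group and do not say whether replicates were separate transfections, so the p-values reflect how far these arrays differ from each other, which can be technical variation alone. Because whole cultures were measured, fewer cells with a transcript and less of it per cell cannot be told apart.

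Notch receptors are single-pass membrane proteins that are cut when a ligand of the Jagged or Delta type on a neighbouring cell binds them. The released intracellular domain enters the nucleus, joins the DNA-binding protein RBPJ and a Mastermind coactivator such as MAML1, and switches on genes that include the HES and HEY repressors. COUP-TFII is an orphan nuclear receptor known in vein endothelium for holding Notch signalling down, and vein cells without it take on arterial features.

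Upstream sequences of the members were read from RefSeq (GRCh38.p14), which matched 8 of the 10 genes, from 250 bases before to 3 after the gene start. HEY1 and DLL3 had no matching entry, so their windows were not searched. The core of the RBPJ site, TGGGAA, was searched on both strands and is held by 21.1% of all 35116 such windows. The windows of the effectors HES1 and HEY2 each held 2 matches, and those of the receptors, JAG1, JAG2 and MAML1 held none. HES1, HEY2 and MAML1 are shown because the first pair are effectors whose array values did not pass the test and MAML1 is a member that rose. Capitals mark the RBPJ core on either strand, and the windows lie on the plus strand at chr3:194135898-194136150 for HES1, chr6:125749382-125749634 for HEY2 and chr5:179732572-179732824 for MAML1.
HES1: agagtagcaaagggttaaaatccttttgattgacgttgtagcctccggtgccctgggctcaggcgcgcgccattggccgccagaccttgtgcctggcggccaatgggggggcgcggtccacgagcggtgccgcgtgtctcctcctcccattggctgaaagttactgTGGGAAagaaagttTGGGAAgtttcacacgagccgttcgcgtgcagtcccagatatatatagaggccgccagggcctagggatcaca
HEY2: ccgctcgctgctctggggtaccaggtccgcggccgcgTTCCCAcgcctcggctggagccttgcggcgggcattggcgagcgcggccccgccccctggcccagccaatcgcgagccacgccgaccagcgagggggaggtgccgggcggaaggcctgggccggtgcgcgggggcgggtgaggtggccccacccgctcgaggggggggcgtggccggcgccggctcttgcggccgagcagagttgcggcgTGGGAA
MAML1: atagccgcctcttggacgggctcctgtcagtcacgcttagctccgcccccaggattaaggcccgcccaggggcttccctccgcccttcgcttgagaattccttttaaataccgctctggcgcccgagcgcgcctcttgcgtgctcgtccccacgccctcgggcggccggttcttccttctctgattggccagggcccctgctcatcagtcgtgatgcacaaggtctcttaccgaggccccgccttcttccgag
The HES1 matches lay 84 and 70 bases before the gene start, both on the gene's own strand. In HEY2 1 match lay 213 bases before the start on the opposite strand, and the other spanned the start itself. The nuclear receptor half-site AGGTCA, which 12.3% of all windows hold, was found in 0 of the 8 member windows. The letters CACGCG, bound by HES and HEY proteins and held by 9.84% of windows, occurred 2 times in HES1 and 1 time in JAG2. A match is a run of letters and not a measured site.

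The 4 arrays had similar distributions, with median intensities from 31.7 to 32.9. Precision is limited by the number of arrays, since the smallest two-sided p that exact permutation of 2 against 2 allows is 0.333. The ACTB 3′ to 5′ control ratio, a sign of RNA integrity, was 1.52 and 1.83 in the control arrays and 1.42 and 1.46 in the COUP-TFII siRNA arrays. For GAPDH the ratios were 0.957 and 0.986 against 0.994 and 0.986. The part of these ratios in the results was not tested. The epithelial genes EPCAM, KRT8, KRT18 and CDH1 were bright on all arrays, from 2024 to 9941, with a summed intensity of 21945 to 22073 in control and 21931 to 21982 in COUP-TFII siRNA arrays. Of these 4 genes, KRT8 (0.16 on the log2 scale) and KRT18 (0.13) rose, and EPCAM (−0.24) and CDH1 (−0.30) fell. Of all genes, 12.7% rose and 10.3% fell. The flat sum thus holds opposite changes. In the luminal list 2 of 3 measured genes, KLK2 and KLK3, stayed under 32, while TMPRSS2 rose from 132 and 157 to 391 and 392, and the summed level was 176 to 180 against 427 to 431. None of the 6 endothelial, 4 stromal or 4 leukocyte markers passed in limma's adjusted test, with 2, 0 and 0 at an unadjusted p under 0.05 (PECAM1 and CDH5, both higher). Their summed intensities in control and COUP-TFII siRNA arrays were 232 to 260 and 265 to 315 for endothelial, 137 to 177 and 134 to 143 for stromal, and 65.4 to 76.2 and 66.4 to 76.7 for leukocyte markers. The endothelial gene VWF lay at or near 1 on all arrays, and PECAM1 was 171, 171, 244 and 193. The part of these markers in the results was not tested.

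Among the 10 genes, the effector HEY1 and the coactivator MAML1 rose and the ligand DLL3 fell, while the 3 receptors, the Jagged ligands, HES1 and HEY2 did not pass. These calls come from limma on log2(intensity + 16), with 1 probe set per gene and an adjusted p of 0.05 (Benjamini-Hochberg) over all 19775 genes. The share called, 3 of 10, stands beside 23% of all genes. The 2 rises stand beside 12.7% of all genes and the 1 fall beside 10.3%, so the count is not itself a result about these genes. On the log2 scale the median change of the 10 was 0.03, against 0.01 for all genes, and 5 were higher and 5 lower. Groups did not overlap in 6 of the 10 genes, 3 higher and 3 lower, which was true of 57.5% of all genes, 30.8% higher and 26.7% lower.

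**Figure D1:**
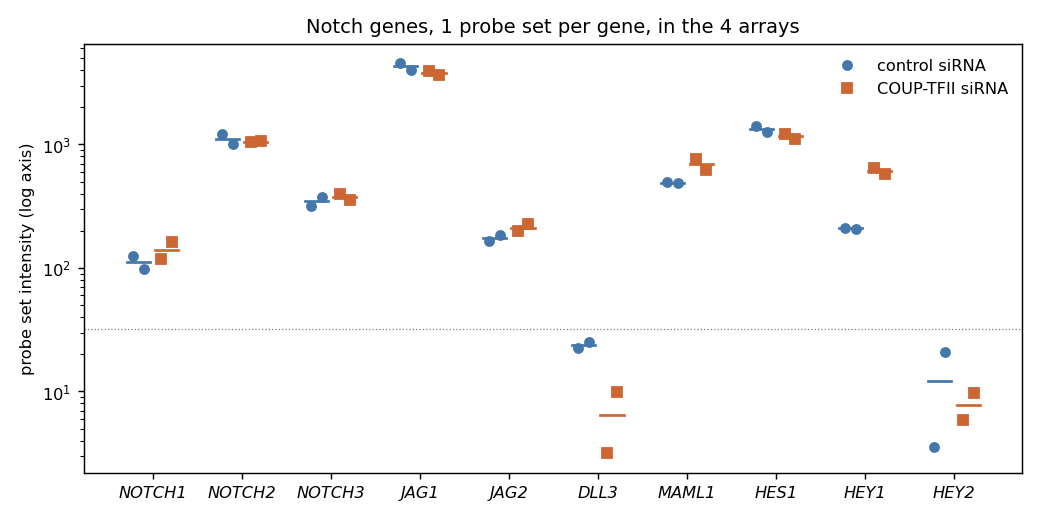
Probe set intensity (log axis) of the 10 Notch genes, 1 probe set each, on the 2 control siRNA arrays (circles) and the 2 COUP-TFII siRNA arrays (squares), with horizontal bars at the group means and a dotted line at 32. HEY1 stands at 207 to 212 in control and 579 to 645 in COUP-TFII siRNA arrays, and DLL3 and HEY2 lie under the dotted line on all arrays.

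HEY1, a basic helix-loop-helix repressor induced by Notch, showed the largest change of the 10 on the log2(intensity + 16) scale. With 1 added in place of 16 the change of the dim DLL3 was larger in size (−1.88, against 1.54 for HEY1). Its intensity was 212 and 207 in the control arrays and 645 and 579 in the COUP-TFII siRNA arrays. Both treated arrays lay far above both controls, with a ratio of means of 2.92. The log2 fold change was 1.48 ± 0.09 (SE, n = 2 per group; limma adjusted p = 9.5e-06), which ranked 39 from the top among all 19775 genes. HEY1 has a second probe set, at 142 and 122 in control and 383 and 321 in COUP-TFII siRNA arrays. That one gave 1.32 ± 0.12 (SE; limma adjusted p = 0.00071 in the fit over all 54613 probe sets), so the rise was measured by both probe sets of the gene. With 1 array left out, the log2 fold change of HEY1 ran from 1.40 to 1.55 and the gene passed each time (limma adjusted p = 0.0052 to 0.0064). The second probe set did not pass without control replicate 2, at 1.22 (limma adjusted p = 0.0568), or with 1 prior variance for all probe sets (limma adjusted p = 0.0539).

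HES1, a helix-loop-helix repressor and a direct Notch target in many tissues, did not pass. Its brightest probe set read 1416 and 1257 in control and 1225 and 1103 in COUP-TFII siRNA arrays. The treated arrays were the lower ones, without overlap, but the log2 fold change of −0.20 ± 0.08 (SE) did not pass (limma adjusted p = 0.11). Its 95% interval ran from −0.37 to −0.02. The next HES1 probe set read 752, 762, 765 and 723, with overlap and a log2 fold change of −0.02, and the last was at 12.4 or below on all arrays. HES1 passed as lower when dim genes were left out (limma adjusted p = 0.0325). That setting called 44.1% of the genes it kept, against 23% of all genes in the main fit. The change of HEY1 exceeded that of HES1 by 1.67 on the log2 scale, with the groups apart. Over these 4 arrays such separation alone fixes the exact two-sided permutation p at its smallest, 0.333. The test therefore cannot weigh that difference.

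HEY2, the relative of HEY1 best known from heart and arteries, was near the floor. Its probe sets read 3.54, 20.7, 5.83 and 9.80, and 15.9, 4.07, 6.03 and 10.0, over the 2 control and then the 2 COUP-TFII siRNA arrays. The groups overlapped in both, and the log2 fold changes of −0.17 and −0.08 had 95% intervals that reached from −0.91 to 0.56 and from −0.70 to 0.55. A change of HEY2 was thus not detectable at these intensities.

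MAML1, the Mastermind coactivator of the nuclear Notch complex, rose on its only probe set. It read 497 and 485 in control and 768 and 626 in COUP-TFII siRNA arrays. The groups did not overlap, and the treated pair were farther apart than the controls. The log2 fold change was 0.49 ± 0.10 (SE, n = 2 per group; limma adjusted p = 0.0069), a ratio of means of 1.42. MAML1 passed without COUP-TFII siRNA replicate 2 (0.63, limma adjusted p = 0.0157). It did not pass without control replicate 1 (0.50, limma adjusted p = 0.0935), without control replicate 2 (0.47, 0.116) or without COUP-TFII siRNA replicate 1 (0.34, 0.0574), nor with 1 prior variance for all genes (0.49, limma adjusted p = 0.105).

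Among the ligands, JAG1, the Jagged ligand expressed in many epithelia, was bright and slightly lower. Its brightest probe set not marked for cross-hybridisation read 4529 and 4035 in control and 3943 and 3671 in COUP-TFII siRNA arrays. The treated arrays lay below the controls, with a log2 fold change of −0.17 ± 0.06 (SE) that did not pass (limma adjusted p = 0.10). The 4 brighter probe sets of JAG1, of 6, gave log2 fold changes from −0.17 to −0.14, and 0 of the 6 passed in the limma fit over probe sets, with 3 lower at an unadjusted p under 0.05. Those were the probe set above, the one marked for cross-hybridisation and a dim one whose COUP-TFII siRNA arrays both read 1. JAG1 did pass as lower when dim genes were left out (limma adjusted p = 0.0056) and when the probe set marked for cross-hybridisation was allowed (−0.17, limma adjusted p = 0.034). Those settings called 44.1% and 23.4% of the genes tested, against 23% in the main fit. The dim probe sets, at 24.2 or below on all arrays, gave −0.79 and 0.41.

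JAG2, the second Jagged ligand, was slightly higher without passing. It read 166 and 185 in control and 199 and 225 in COUP-TFII siRNA arrays on one probe set and 106, 121, 139 and 140 on the other. In both, the treated arrays lay above the controls, with log2 fold changes of 0.25 and 0.27. The gene's adjusted p was 0.19 (limma), and the 95% interval of its change ran from −0.02 to 0.52. JAG1 was lower and JAG2 higher on this scale and neither passed, although JAG1 was also higher (0.12) with arrays centred on the housekeeping median.

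DLL3, a divergent Delta-like ligand known as a surface antigen of neuroendocrine tumours, passed as lower on a dim probe set. That probe set read 22.5 and 25.0 in control and 3.15 and 9.84 in COUP-TFII siRNA arrays. The groups did not overlap, but all 4 values lay under the array medians, and the difference of −0.84 ± 0.24 (SE, log2 scale, with a limma adjusted p of 0.032) depended on how dim values were handled. It was −1.88 with 1 added before the logarithm (limma adjusted p = 0.0541) and −0.32 with 64 added (0.0296). The call was kept in 4 of 14 settings. Among these were quantile normalization (−0.82, limma adjusted p = 0.0388) and centring on the housekeeping mean (−0.75, 0.0389). The brightest DLL3 probe set, marked for cross-hybridisation, read 73.3 and 83.8 against 89.7 and 109, with a log2 fold change of 0.29 the other way, which did not pass. The remaining pair, at 15.4 or below on all arrays, gave 0.04 and 0.08. DLL3 did not pass without control replicate 1 (−0.88, limma adjusted p = 0.13), control replicate 2 (−0.79, 0.169), COUP-TFII siRNA replicate 1 (−0.62, 0.191) or COUP-TFII siRNA replicate 2 (−1.05, 0.0612), nor in the fit over probe sets (limma adjusted p = 0.069). The mean of its 4 probe sets gave −0.11 (limma adjusted p = 0.755), centring on the housekeeping median −0.55 (0.103), and 1 prior variance for all genes an adjusted p of 0.0699.

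None of the 3 receptors passed limma's adjusted test over genes, and 0 were under 0.05 unadjusted, although all 3 passed as higher with arrays centred on the housekeeping median. That centring called 42.3% of all genes, and 88.7% of those calls were higher. NOTCH1, the receptor most often studied in T-cell leukaemia, read 124 and 97.9 in control and 118 and 162 in COUP-TFII siRNA arrays. The groups overlapped, and the log2 fold change of 0.29 had a 95% interval from −0.12 to 0.69 (limma adjusted p = 0.32). Its other probe set was at 12.2 or below on all arrays.

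NOTCH2 read 1213 and 1017 in control and 1050 and 1060 in COUP-TFII siRNA arrays, with the treated pair inside the range of the controls. The log2 fold change was −0.07, with a 95% interval from −0.26 to 0.12 (limma adjusted p = 0.61). The other 3 NOTCH2 probe sets gave −0.16, 0.11 and −0.35, and none of the 4 passed in the limma fit over probe sets, with 0 under 0.05 unadjusted. NOTCH2 has near-identical partial copies in the genome, the NOTCH2NL genes, so its probe sets may read more than 1 gene.

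NOTCH3, a receptor typical of vascular smooth muscle that is also found in epithelial tumours, read 317 and 374 in control and 400 and 357 in COUP-TFII siRNA arrays. The ranges overlapped, and the log2 fold change was 0.13, with a 95% interval from −0.11 to 0.37 (limma adjusted p = 0.46). Its second probe set read 10.2, 8.85, 32.3 and 9.20, high in COUP-TFII siRNA replicate 1 alone.

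**Figure D2:**
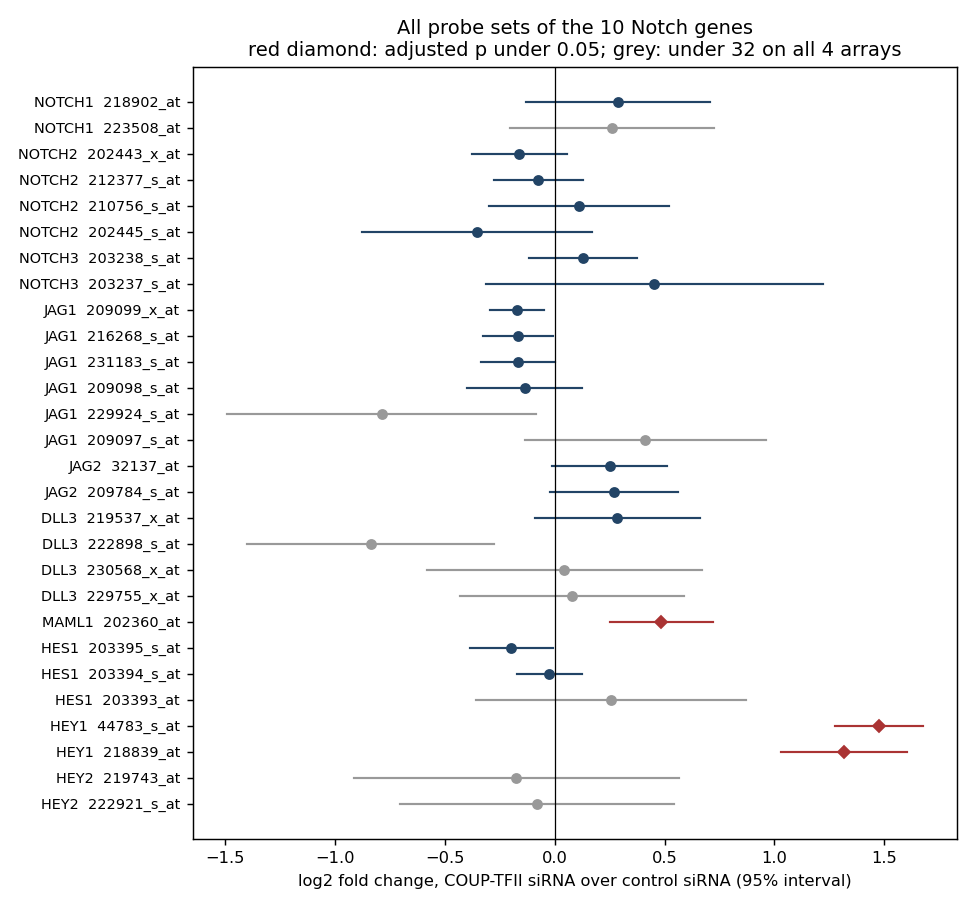
Log2 fold change (COUP-TFII siRNA over control siRNA) with its 95% interval for all 28 probe sets of the 10 Notch genes, from the fit over all probe sets. Red diamonds passed an adjusted p of 0.05, and grey points lay under 32 on all 4 arrays. The 3 red diamonds are both HEY1 probe sets and the MAML1 probe set.

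Across all 28 probe sets, 3 rose and 0 fell in the fit over 54613 probe sets, which called 12.2% of all probe sets, 6.51% as higher and 5.67% as lower. The 3 that passed were the HEY1 pair and MAML1, with 25 not passing. At an unadjusted p under 0.05 (limma) 3 were higher and 5 lower. The share of all probe sets at that p is not given here, so these 2 counts cannot be set against it. Of the 28, 9 lay under 32 on every array: all of HEY2, 3 of the 4 of DLL3, 2 of the 6 of JAG1, and 1 each of NOTCH1 and HES1. Groups did not overlap in 15 of the 28, 8 higher and 7 lower, against 50.4% of all probe sets, 26.3% higher and 24.1% lower. The plot of log2 fold changes by probe set shows the bright probe sets of JAG1 side by side just below 0 and those of JAG2 just above.

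Other genes of the pathway mostly did not pass either. From a list of 49, 46 were measured, of which 7 rose, 1 fell and 38 did not pass. The share called was 17.4%, below the 23% of all genes, and the median log2 fold change was 0.13, against 0.01 for all genes. By direction, the 7 rises and the 1 fall among the 46 stand beside 12.7% and 10.3% of all genes. Groups did not overlap in 20 genes that were higher and 3 that were lower, or 23 of the 46, beside 30.8% and 26.7% of all genes.

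KAT2B, an acetyltransferase recruited as a coactivator to the Notch complex, was the 1 gene that fell. It read 334 and 292 in control and 174 and 165 in COUP-TFII siRNA arrays, well apart. The log2 fold change was −0.82 ± 0.11 (SE, n = 2 per group; limma adjusted p = 0.00074), and it passed whichever array was left out, at limma adjusted p-values of 0.0191 to 0.0346. In the same nuclear group EP300, the p300 acetyltransferase, rose from 307 and 238 to 390 and 354 (0.44, limma adjusted p = 0.033). SPEN, a corepressor that binds RBPJ, rose from 399 and 326 to 451 and 466 (0.33, limma adjusted p = 0.048). Of the probe sets, 0 of 2 for EP300 and 0 of 4 for SPEN passed in the fit over probe sets, where the brightest gave limma adjusted p-values of 0.069 and 0.090. The mean of a gene's probe sets did not pass for either (limma adjusted p = 0.0569 and 0.167). SPEN also missed the threshold with 1 or 64 added (limma adjusted p = 0.0501 and 0.0504) and with quantile normalization (0.0648). RBPJ itself, at 985, 959, 1056 and 863, overlapped between groups, with a log2 fold change of −0.03 and a 95% interval from −0.23 to 0.18. The other Mastermind genes MAML2 and MAML3 gave 0.08 and −0.03 and did not pass.

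In receptor processing, 2 of 8 measured genes rose and none fell, beside 12.7% and 10.3% of all genes. PSENEN, a subunit of the gamma-secretase that makes the final cut, rose from 576 and 604 to 769 and 899, or by 0.48 ± 0.09 on the log2 scale (SE), with a limma adjusted p of 0.0035. ADAM17, a sheddase that can cut the receptor outside the membrane, rose from 920 and 852 to 1170 and 998 (0.28, limma adjusted p = 0.041). In the fit over probe sets that ADAM17 probe set did not pass (limma adjusted p = 0.087), and 1 of the 3, marked for cross-hybridisation, did (0.28, 0.022). The other secretase subunit genes PSEN2, NCSTN, APH1A and APH1B gave 0.22, 0.21, 0.02 and 0.14, and ADAM10, the main sheddase, 0.09, none passing. Another APH1B probe set fell in the fit over probe sets, from 126 and 119 to 68.4 and 80.9 (−0.62, limma adjusted p = 0.033).

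In receptor glycosylation, 2 of 5 rose, against 12.7% of all genes. RFNG, a Fringe glycosyltransferase, rose from 170 and 188 to 257 and 281 (0.54, limma adjusted p = 0.0072). POFUT1, which adds O-fucose to Notch, rose from 182 and 166 to 247 and 231 (0.43, limma adjusted p = 0.023). The rest of this list did not pass. LFNG (0.34, limma adjusted p = 0.073) and POGLUT1 (−0.35, 0.051) leaned opposite ways without overlap. MFNG (−0.31, 0.47) overlapped between groups. Of 12 genes for endocytosis and ubiquitination, 1 rose, against the same share: MIB2, a ubiquitin ligase acting on ligands, from 166 and 166 to 284 and 247 (0.62, limma adjusted p = 0.0040). Only 1 of the 5 MIB2 probe sets passed in the fit over probe sets, and the mean of the 5 gave 0.24 (limma adjusted p = 0.312). For POFUT1 1 of 2 passed and the mean gave 0.19 (limma adjusted p = 0.322).

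**Figure D3:**
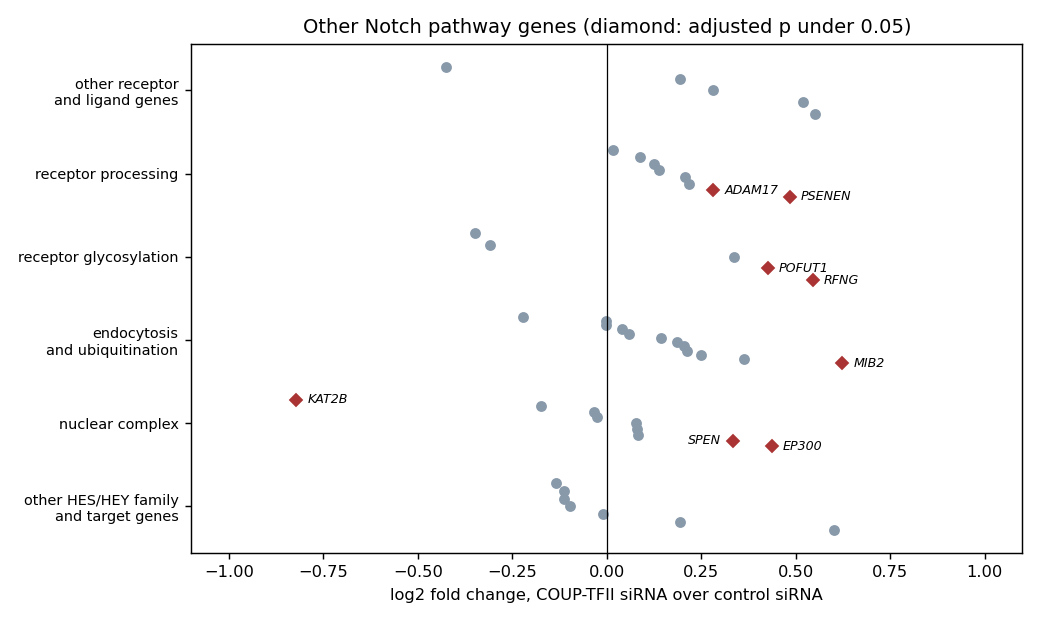
Log2 fold change (COUP-TFII siRNA over control siRNA) of the 46 measured genes of the wider Notch pathway, grouped by role. Red diamonds with names passed an adjusted p of 0.05, and grey circles did not. KAT2B at −0.82 is the 1 named gene left of 0.

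None of the 7 other HES/HEY family and target genes passed in limma's adjusted test, nor any of the 5 further receptor and ligand genes, with 1 and 2 at an unadjusted p under 0.05. The HES6 probe set read 28.4 and 31.5 in control and 57.0 and 50.4 in COUP-TFII siRNA arrays, apart but dim (0.60, limma adjusted p = 0.056). DLL4, the arterial Delta ligand, read 61.6 and 76.3 against 97.8 and 113 (0.52, limma adjusted p = 0.058). NRARP and HEYL, both known as Notch-induced genes, gave −0.01 and −0.11 with overlap between groups. In the fit over probe sets, 8 of the 105 probe sets of the 46 genes rose and 3 fell (10.5%, beside 12.2% of all). These included probe sets that do not represent their gene above, of HES2 (0.48, limma adjusted p = 0.022), ITCH (0.62, 0.012) and TLE1 (0.87, 0.037, at 22.1 or below on all arrays), which rose, and of MIB1 (−0.88, 0.0090), which fell.

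Each of the 7 rises of the wider pathway missed the threshold in at least 2 of the 4 fits with 1 array left out. RFNG and POFUT1 passed in none of the 4 such fits (limma adjusted p of 0.0544 to 0.0937 and 0.0891 to 0.167). MIB2 and ADAM17 passed only without COUP-TFII siRNA replicate 2 (limma adjusted p = 0.0324 and 0.0423), and were at 0.0614 to 0.0663 and 0.148 to 0.308 in the other 3. EP300 and SPEN passed only without control replicate 1 (limma adjusted p = 0.0413 and 0.0497), and were at 0.151 to 0.27 and 0.211 to 0.306 otherwise. With 1 prior variance for all genes, 6 of the 7 missed it and MIB2 passed. PSENEN did not pass without control replicate 1 (limma adjusted p = 0.0815) or control replicate 2 (0.0631). Each fit with 1 array left out called fewer genes than the main fit, both among the 46 and among all genes. Missing the threshold there is thus not particular to these genes.

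The genes closest to HEY1 in profile, by Euclidean distance of log2 values centred on each gene's mean over the 4 arrays, were SMAD7 (0.05), MECOM (0.05) and DSTYK (0.08), out of 12767 genes with a mean of at least 32. SMAD7, the inhibitory SMAD, read 34.4, 34.4, 129 and 113. MECOM, a zinc finger transcription factor, read 220, 213, 673 and 625, and the kinase gene DSTYK 236, 215, 664 and 619. The likeness is a description over 4 arrays.

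**Figure D4:**
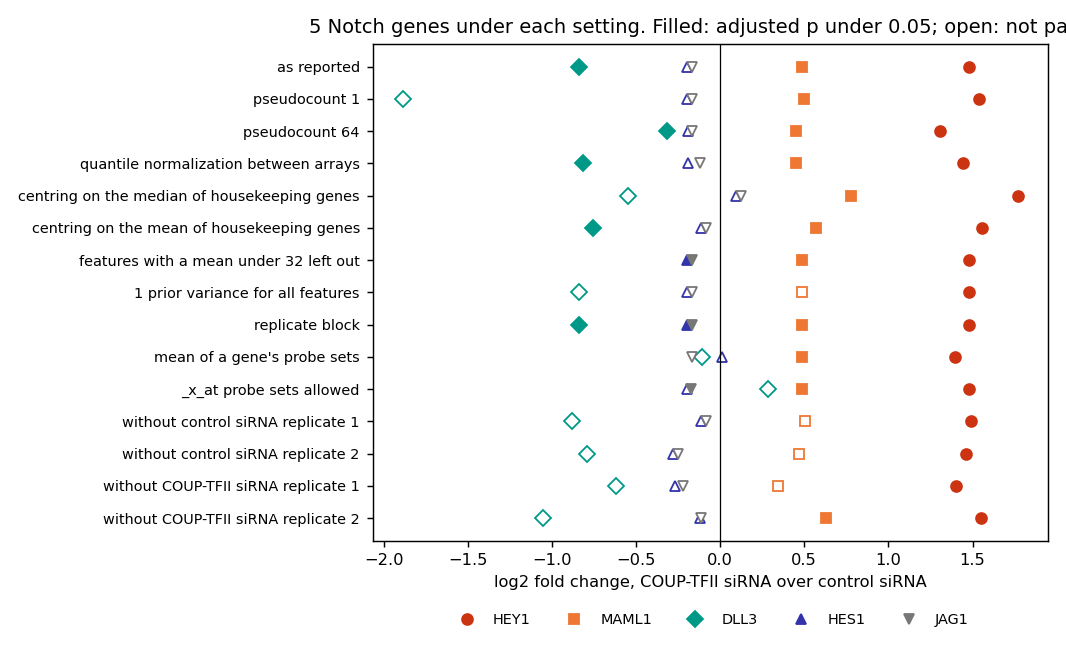
Log2 fold change (COUP-TFII siRNA over control siRNA) of HEY1, MAML1, DLL3, HES1 and JAG1 as reported and under each other setting, with filled symbols where the adjusted p was under 0.05. HEY1 is filled in every setting shown and lies between 1.30 and 1.77, while DLL3 ranges from −1.88 to 0.29.

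Directions of the small changes depended on the scaling. When arrays were centred on the median of 14 housekeeping genes, the median over all genes moved up by 0.29 and every value here with it. HEY1 was then 1.77 and MAML1 0.78, and NOTCH2 (0.22), JAG1 (0.12), HES1 (0.10) and HEY2 (0.12) turned positive. NOTCH1 (0.58, limma adjusted p = 0.0214), NOTCH2 (adjusted p = 0.0395), NOTCH3 (0.42, 0.00491) and JAG2 (0.54, 0.00384) then passed as higher, beside 42.3% of all genes called in either direction. Of those calls over all genes, 88.7% were higher. Centring on their mean moved the median by 0.08, and of these only NOTCH2 (0.01) changed sign. This centring adds the same amount to every gene. HEY1 kept its direction and its call in all 15 settings, including all 4 fits with an array left out. The plot of 5 genes by setting shows this beside the open symbols of MAML1 and the spread of DLL3.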

How the data were processed

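The authors deposited linear intensities per probe set, from 1-colour Affymetrix arrays hybridised with biotin-labelled cRNA, per the labels' protocols. How they were summarised and normalized is not given in the sources used here. No detection calls were used. Array medians differed by under 5%, so no scaling was added.

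Intensities were used as log2(intensity + 16), which understates changes of dim genes. Of 54675 probe sets, 62 controls were left out. The platform table named 1 gene for 41091 probe sets, of which 41037 were updated through Entrez identifiers. Each of 19775 genes was represented by its probe set with the highest mean, leaving out those marked _x_at (open to cross-hybridisation) where it had another. Groups were compared with limma 3.58.1 in R 4.3.3 (intensity trend, no replicate block, 2 residual degrees of freedom). Standard errors, intervals and p-values rest on variances moderated with a prior from all features (8.78 total degrees of freedom in the gene fit). Fits were made over genes and, separately, over 54613 probe sets, with Benjamini-Hochberg adjustment at 0.05. The script was tested on simulated data.

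The members, the lists and the rules were chosen with earlier results of these data known. Named genes were the 10 members, up to 14 called pathway genes without overlap and with a mean of at least 32 in the higher group, and the 3 genes closest to the most changed member. Alternatives covered pseudocounts of 1 and 64, quantile normalization, housekeeping centring, the prior variance, dim genes, the probe set per gene, a threshold of 0.01, the replicate block and each array left out. The targeted transcript's own level is not reported here. Figures were drawn with matplotlib 3.10.9.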

Additional observations from a re-analysis of the deposited data

How the results depend on the processing

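Of all genes, 4558 were called (55.3% higher). The count was 8373 with arrays centred on the median of housekeeping genes (88.7% higher), 1568 with 1 prior variance (48.1% higher), 2770 at a threshold of 0.01, and 1828 to 2348 with 1 array left out, where fewer samples were fitted. Quantile normalization gave no such shift. The count of called members, 3 as reported, was 6 with that centring, 1 with 1 prior variance and 1 to 2 with 1 array left out. For the 28 probe sets, also 3, it was 10 with that centring and 1 with 1 prior variance. With dim features left out it was 6, or 33.3% of the member probe sets then kept. For the wider pathway, 8 as reported, it was 29 with that centring and 14 with centring on the mean, 13 with dim genes left out, 3 with 1 prior variance, 4 at the stricter threshold and 1 to 4 with 1 array left out. Centring on the housekeeping median called 60% of members and 63% of the wider pathway, beside 42.3% of all genes. With 1 prior variance these shares were 10%, 6.52% and 7.93%. Of the wider pathway, centring on the mean called 30.4% beside 26.2% of all genes, and leaving out dim genes 31.7% beside 44.1%. At the stricter threshold it was 8.7% beside 14%. The matching shares of all probe sets are not given here. NOTCH2 turned to 0.22 and the second HES1 probe set to 0.27 (both passing) with centring on the median, and DLL3 to 0.29 with _x_at probe sets allowed, which changes its probe set. Apart from what these settings do by construction, the cause was not tested.

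Replicate numbers are shared between groups, but deviations from the group means of arrays with the same number correlated at only 0.02 over genes, and the labels name no pairing. With the replicate block 5 members were called, beside 25.9% of all genes: HEY1 and MAML1 higher, and DLL3, JAG1 (adjusted p = 0.0139) and HES1 (0.0209) lower. So were 6 of the probe sets (3 and 3) and 12 of the wider pathway.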

Other observations

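A further probe set was assigned by the platform table to NOTCH2 together with its NOTCH2NL copies, and so belongs to no single gene. It read 538 and 532 in control and 384 and 416 in COUP-TFII siRNA arrays. The treated arrays lay below both controls, with a log2 fold change of −0.41 ± 0.07 (SE, n = 2 per group; limma adjusted p = 0.012 over all probe sets), whereas none of the 4 probe sets of NOTCH2 alone passed in that fit.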
